A study of Drosophila melanogaster with 20 samples.

Results

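The genes described here encode proteins of the mitochondrial ribosome in Drosophila melanogaster. They were taken as every gene of the expression table whose symbol starts with mRpL, for the large subunit, or mRpS, for the small subunit. This gave 72 genes, 46 mRpL and 26 mRpS, of 9831 genes in all. Subunits are assigned by these symbols alone in all counts, medians and figures. The rule uses symbols and no expression values, though it was proposed with earlier results of these data known. Another pair of genes, tko and bonsai, encodes small-subunit proteins under other names and was kept apart.

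Mitochondria have their own ribosome, which translates the few proteins encoded in mitochondrial DNA, all of them parts of the oxidative phosphorylation machinery. Its RNAs are transcribed from mitochondrial DNA, whereas its proteins are encoded in the nucleus, made in the cytosol and imported, so that assembly draws on both genomes. Some of these proteins descend from those of bacterial ribosomes, and others were added during the evolution of mitochondria. Photoreceptors, neurons and muscle, all present in a fly head, are rich in mitochondria.

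Polyadenylated RNA was sequenced from heads of adult males, taken from mixed-sex populations, with 25 to 30 heads pooled per sample. The 20 libraries fall into 4 groups, midlife chm/+ (22 to 23 days old, n = 5), young chm/+ (7 days old, n = 6), midlife wild type (22 to 23 days old, n = 4) and young wild type (7 days old, n = 5). The series asks how a mutation in chm, which encodes the histone acetyltransferase chameau, alters the changes of gene expression with age. chm/+ flies are heterozygous, and neither the mutant allele nor the strain background is named in the sources used here.

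Values are counts normalized by the authors for library size, with totals of 27572012 to 30470376 per library. The number of reads behind a value is unknown, so precision rests on the spread between libraries, here given as SD. chm stood at 335.9 ± 22.0 (SD, n = 5) in midlife chm/+ and 613.3 ± 46.3 (SD, n = 4) in midlife wild type, and at 320.6 ± 24.6 (SD, n = 6) in young chm/+ and 615.3 ± 36.6 (SD, n = 5) in young wild type, with no overlap at either age. The opsin gene ninaE was at 1020000 or more in every library, and marks the photoreceptors of the eye. Libraries are named by their columns (CHMo, midlife chm/+; CHMy, young chm/+; 2uo, midlife wild type; 2uy, young wild type), since columns could be tied to groups and not to single listed samples. All 4 groups occur among the first 10 columns and among the last 10, and these blocks of columns are termed column sets, though no batch is labelled. In whole heads, fewer cells of a kind and less RNA per cell cannot be told apart.

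The transcripts of the mitochondrial ribosome were detected in every library at unequal levels. Per kilobase of exon, with lengths from a later annotation (Ensembl, BDGP6), the median was 445 normalized counts per kb. The range ran from 141 for mRpS24, the small-subunit protein that corresponds to bacterial S3, to 2659 for mRpS5, a protein of the small subunit with a bacterial counterpart. That is an 18.9-fold span for proteins that are built into the same particle. mRpS5 stood apart at the top. After it came mRpL28 at 1122, mRpS7 at 935, mRpS9 at 933 and mRpL33 at 898 per kb. At the lower end were mRpL21 at 148, mRpS14 at 242 and mRpL11, part of the site where translation factors bind, at 267 per kb. The large subunit had a median of 442.6 per kb and the small subunit 479.2 per kb. In mRpS24, 55.3% of the exon length is shared with TBC1d7 on the opposite strand, and in mRpS14, 35.8% is shared with other genes. The strand setting of the authors' counting is not given in the sources used here, so both levels are uncertain. The 18.9-fold span, with mRpS24 at its lower end, is therefore uncertain too. At the upper end, the exon length of mRpS5 was matched by symbol and not by gene ID.

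**Figure D1:**
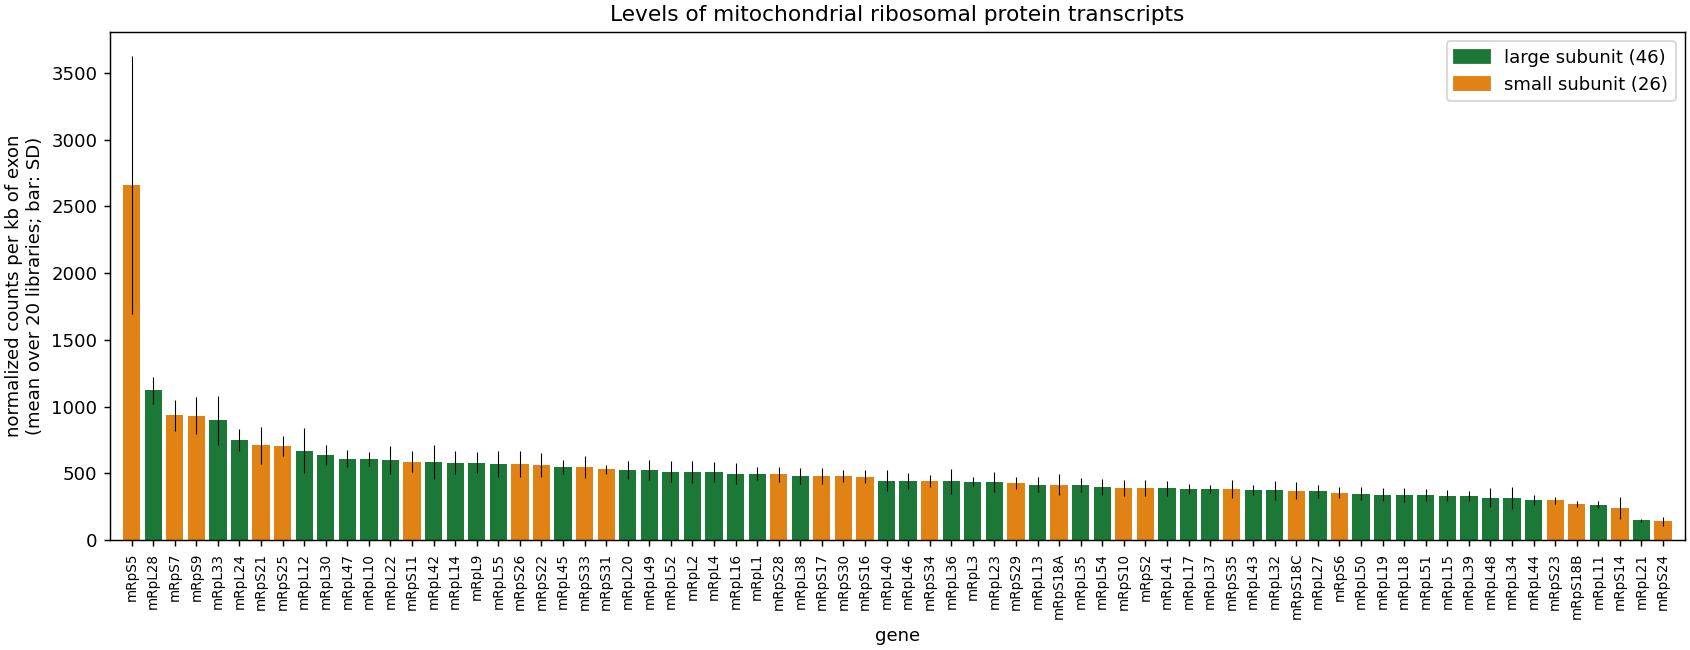
Mean level of each of the 72 mitochondrial ribosomal protein transcripts, in normalized counts per kb of exon over 20 libraries, with green bars for the large subunit, orange bars for the small subunit and lines for the SD over libraries. mRpS5 stands at 2659 per kb, above mRpL28 at 1122, and the lowest gene is mRpS24 at 141.

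mRpS5 also varied most by library. Its values were 4887, 5926, 3701, 3915 and 6363 normalized counts in midlife chm/+ libraries, and ran from 2751 through a median of 5206 to 7297 in young chm/+ libraries. They were 5114, 2204, 2849 and 3073 in midlife wild type libraries, against 2823, 2542, 2657, 5841 and 6295 in young wild type libraries. The fitted log2 change between chm/+ and wild type was the highest of the 72 at both ages, 0.62 at midlife (SE 0.32, limma adjusted p = 0.412) and 0.41 in young flies (SE 0.29, limma adjusted p = 0.507), but the groups overlapped and neither was called. The column sets differed by more: 9 of the last 10 columns lay between 4887 and 7297, the first 10 columns lay between 2542 and 4251, and 2uo2, the remaining column of the last set, had 2204. Of the other 71 genes, 4 were split the same way but in the opposite direction, namely mRpL12, mRpL16, mRpS14 and mRpS35. mRpL12, the stalk protein of the large subunit, lay between 304.1 and 455.8 in those 9 columns and between 495.7 and 721 in the first 10, with 581.7 in 2uo2. mRpS14 lay between 103.2 and 143.3 in those 9 columns and between 199.2 and 332.4 in the first 10, with 218 in 2uo2. This grouping of columns was noticed in these values and has no test. The sets are spread over the groups, with 2 of 5 midlife chm/+ libraries, 3 of 6 young chm/+, 2 of 4 midlife wild type and 3 of 5 young wild type in the first.

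Most of the other genes moved together from library to library. With group means removed, the median Pearson correlation of a gene with the mean of the other 71 was 0.60 over 20 libraries, and 47 of 72 had a correlation above 0.5, as did 21.1% of the genes outside the list with the mean of the 72. These libraries share normalization and column set, and the correlations are descriptions without a test. mRpS5 ran against the rest with a correlation of -0.74. The spread within groups was a median SD of 0.17 on the log2 scale, close to the 0.19 of all genes.

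The first comparison asks how the 72 transcripts differed between midlife and young chm/+ heads. They were lower at midlife, by little, and nearly throughout. In a limma fit over all genes, 14 of 72 (19.4%) fell and 0 rose at a Benjamini-Hochberg adjusted p under 0.05, where 16% of all 9831 genes were called in either direction, 7.36% falling and 8.63% rising. A further 58 did not pass, and 29 of 72 had an unadjusted p under 0.05, as did 2698 of all 9831 genes, a smaller share. The fitted log2 change was negative for 68 of 72 genes, against 52.0% of all genes, with a median of -0.19 beside -0.01 over all genes. Both subunits were involved: 9 of 46 large-subunit genes fell, with a median of -0.20, and 5 of 26 small-subunit genes fell, with a median of -0.17. Among genes taken as counterparts of bacterial ribosomal proteins, by number and for mRpL47 and mRpS24 by known homology, 7 of 44 fell. Among the others 7 of 28 fell, and the split was not tested. Members that fell were on all 5 large chromosome arms, 2 of 12 on 2L, 4 of 11 on 2R, 2 of 17 on 3L, 5 of 21 on 3R and 1 of 11 on X.

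The heat map of all 72 genes orders them by this change and shows each library.

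**Figure D2:**
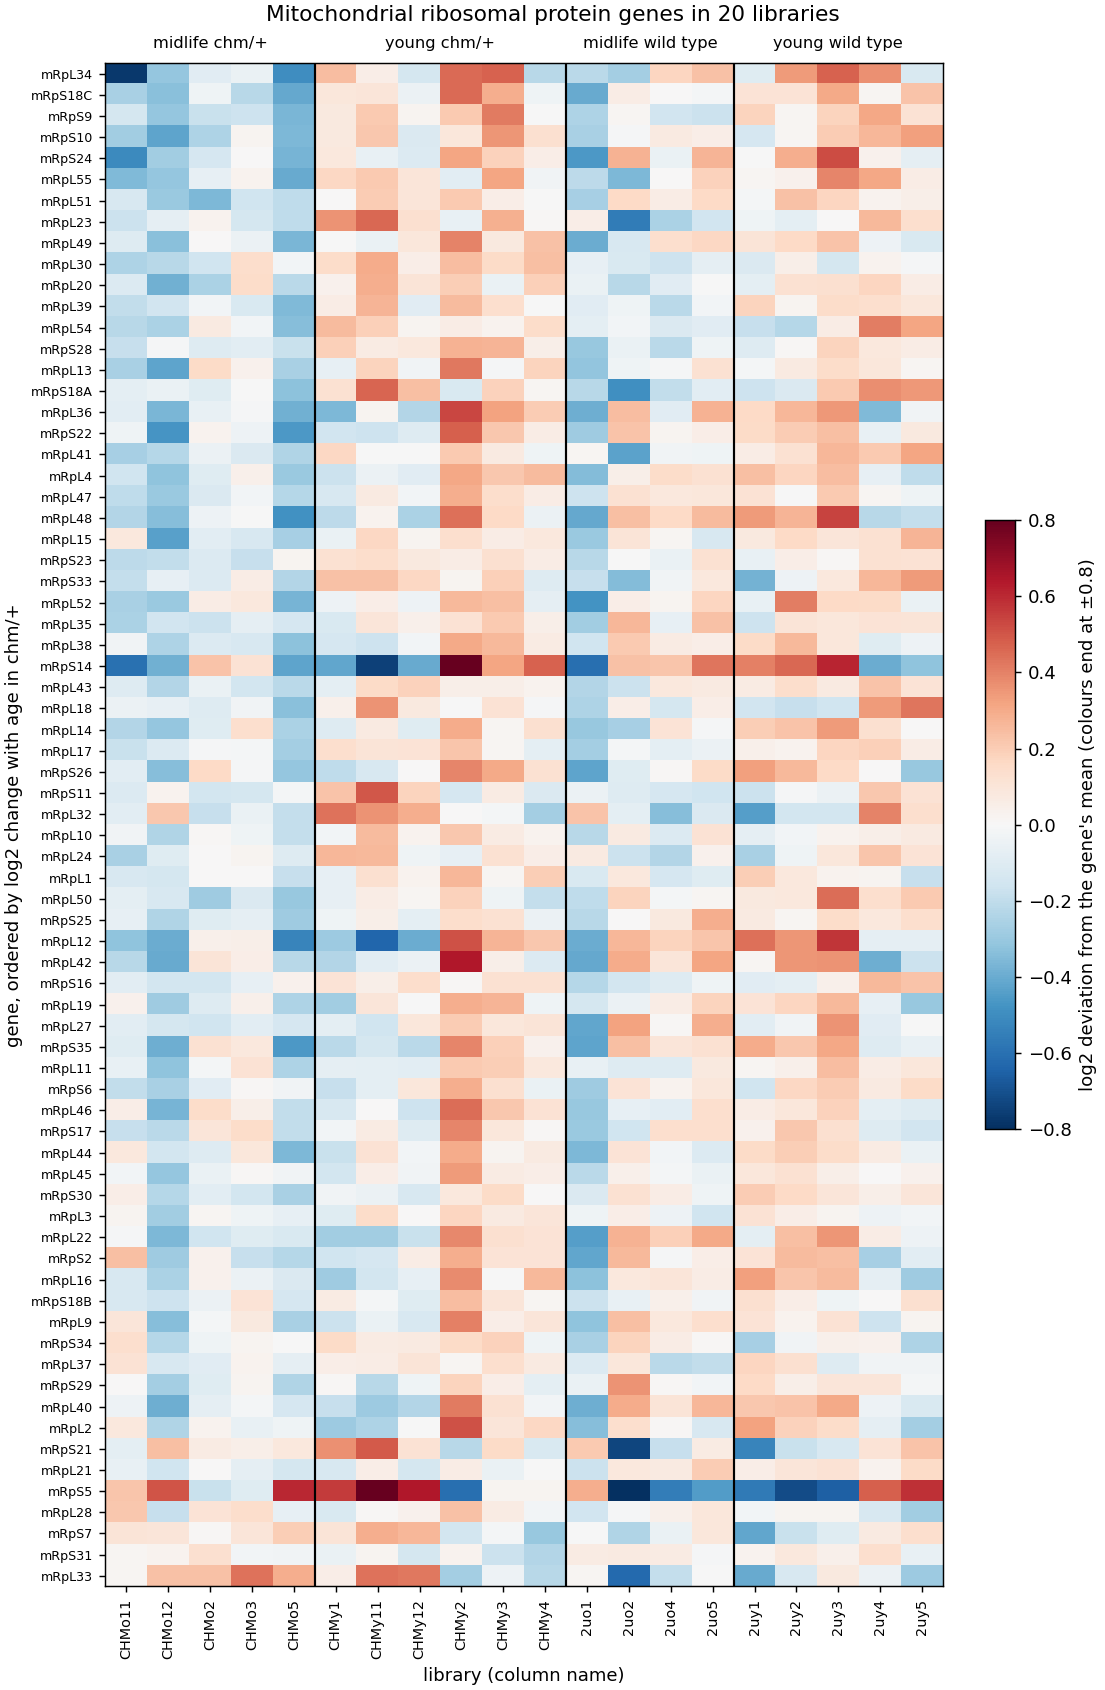
Log2 deviation of each of the 72 genes (rows) from its own mean over the 20 libraries (columns, grouped as midlife chm/+, young chm/+, midlife wild type and young wild type), blue for below and red for above. Rows run from the lowest to the highest log2 change with age in chm/+, so that mRpL34 is at the top and mRpL33 at the bottom, and mRpS5 runs against its neighbours.

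In the small subunit, mRpS9 gave the smallest p. It encodes the mitochondrial counterpart of bacterial S9, whose tail reaches the peptidyl-tRNA in bacterial ribosomes. Midlife chm/+ libraries had 1080, 961.8, 1052, 1062 and 924.6 normalized counts, against 1192 to 1595 with a median of 1322 in young chm/+ libraries. Every midlife library was below every young one, and the log2 change was -0.39 (SE 0.08, limma adjusted p = 0.00161). In the reference annotation 25.1% of the mRpS9 exon length is shared with ArgRS-m (CG10092 in the table), a mitochondrial arginyl-tRNA synthetase gene on the opposite strand. ArgRS-m itself was not called, with a log2 change of -0.18 (limma adjusted p = 0.110).

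mRpS28 and mRpS23 also separated the ages without overlap. mRpS28 had 296.4, 336.8, 314.4, 318.4 and 297.6 normalized counts in midlife chm/+ libraries, against 350.7 to 412.8 with a median of 374.4 in young chm/+ libraries (log2 change -0.27, SE 0.07, limma adjusted p = 0.0117). mRpS23 had 179.9, 181.2, 193.8, 182.8 and 213.5 in midlife chm/+ libraries, against 219.3 to 232.3 with a median of 226.4 in young chm/+ libraries (log2 change -0.23, SE 0.07, limma adjusted p = 0.0195). The young libraries lay close together for mRpS23, at 225.7 ± 5.83 (SD, n = 6). mRpS23 has no counterpart in bacterial ribosomes.

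mRpS10 and mRpS18C fell further but with overlapping libraries. mRpS10, the counterpart of bacterial S10 in the head of the small subunit, had 247, 222.5, 252.5, 308 and 232.8 normalized counts in midlife chm/+ libraries, against 277.9 to 390.1 with a median of 327.4 in young chm/+ libraries (log2 change -0.38, SE 0.10, limma adjusted p = 0.0136). CHMo3, at 308, was the one midlife library within the young range. mRpS18C, a counterpart of bacterial S18, had 159.4, 150.5, 188.6, 164.3 and 142.5 in midlife chm/+ libraries, against 186.9 to 270.6 with a median of 207.7 in young chm/+ libraries (log2 change -0.39, SE 0.10, limma adjusted p = 0.0121). There CHMo2, at 188.6, reached the lowest young values, and 11% of the exon length is shared with CG15536 on the other strand.

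In the large subunit, mRpL51 and mRpL30 gave the smallest p. mRpL51, a protein without a counterpart in bacteria, had 191.2, 168.5, 160.8, 186.9 and 180.6 normalized counts in midlife chm/+ libraries, against 209.5 to 245.7 with a median of 222.1 in young chm/+ libraries (log2 change -0.32, SE 0.08, limma adjusted p = 0.00945). The groups did not overlap. mRpL30 had 370, 377.2, 394.8, 488.8 and 434.6 in midlife chm/+ libraries, against 460 to 547.8 with a median of 508.9 in young chm/+ libraries (log2 change -0.29, SE 0.07, limma adjusted p = 0.00683). Again CHMo3, at 488.8, lay within the young range. mRpL41 separated the ages without overlap, with 187.3 to 220.5 in midlife chm/+ libraries and 222.3 to 266.9 in young chm/+ libraries (log2 change -0.25, SE 0.08, limma adjusted p = 0.0458).

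The remaining large-subunit genes that fell had overlapping libraries and log2 changes of -0.27 for mRpL39, -0.29 for mRpL20, -0.24 for mRpL47, -0.33 for mRpL55, -0.21 for mRpL43 and -0.49 for mRpL34. The limma adjusted p was 0.0145 for mRpL39 and between 0.0250 and 0.0496 for the other 5. mRpL34 had the steepest fitted change of the 72. Of the 14 genes that fell, it had the widest spread within groups (SD 0.29 on the log2 scale). It had 52.89, 78.38, 93.72, 96.47 and 67.05 normalized counts in midlife chm/+ libraries, against 84.46 to 145.4 with a median of 113.5 in young chm/+ libraries (SE 0.17, limma adjusted p = 0.0496). In all, 6 of 72 genes had every midlife chm/+ library below every young one and 0 had the reverse, where 4.4% of all genes showed the first and 4.59% the second. The sixth, mRpL18, was not called (log2 change -0.21, limma adjusted p = 0.249).

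The genes at the other end did not pass the test. mRpL33, a short protein of the large subunit, had 367.8 ± 39.0 (SD, n = 5) in midlife chm/+ and 328.2 ± 74.3 (SD, n = 6) in young chm/+ libraries, a log2 change of 0.18 (SE 0.14). mRpS31 had a log2 change of 0.12, mRpS7 of 0.07 and mRpL28 of 0.01, and these were the 4 genes with a positive change.

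**Figure D3:**
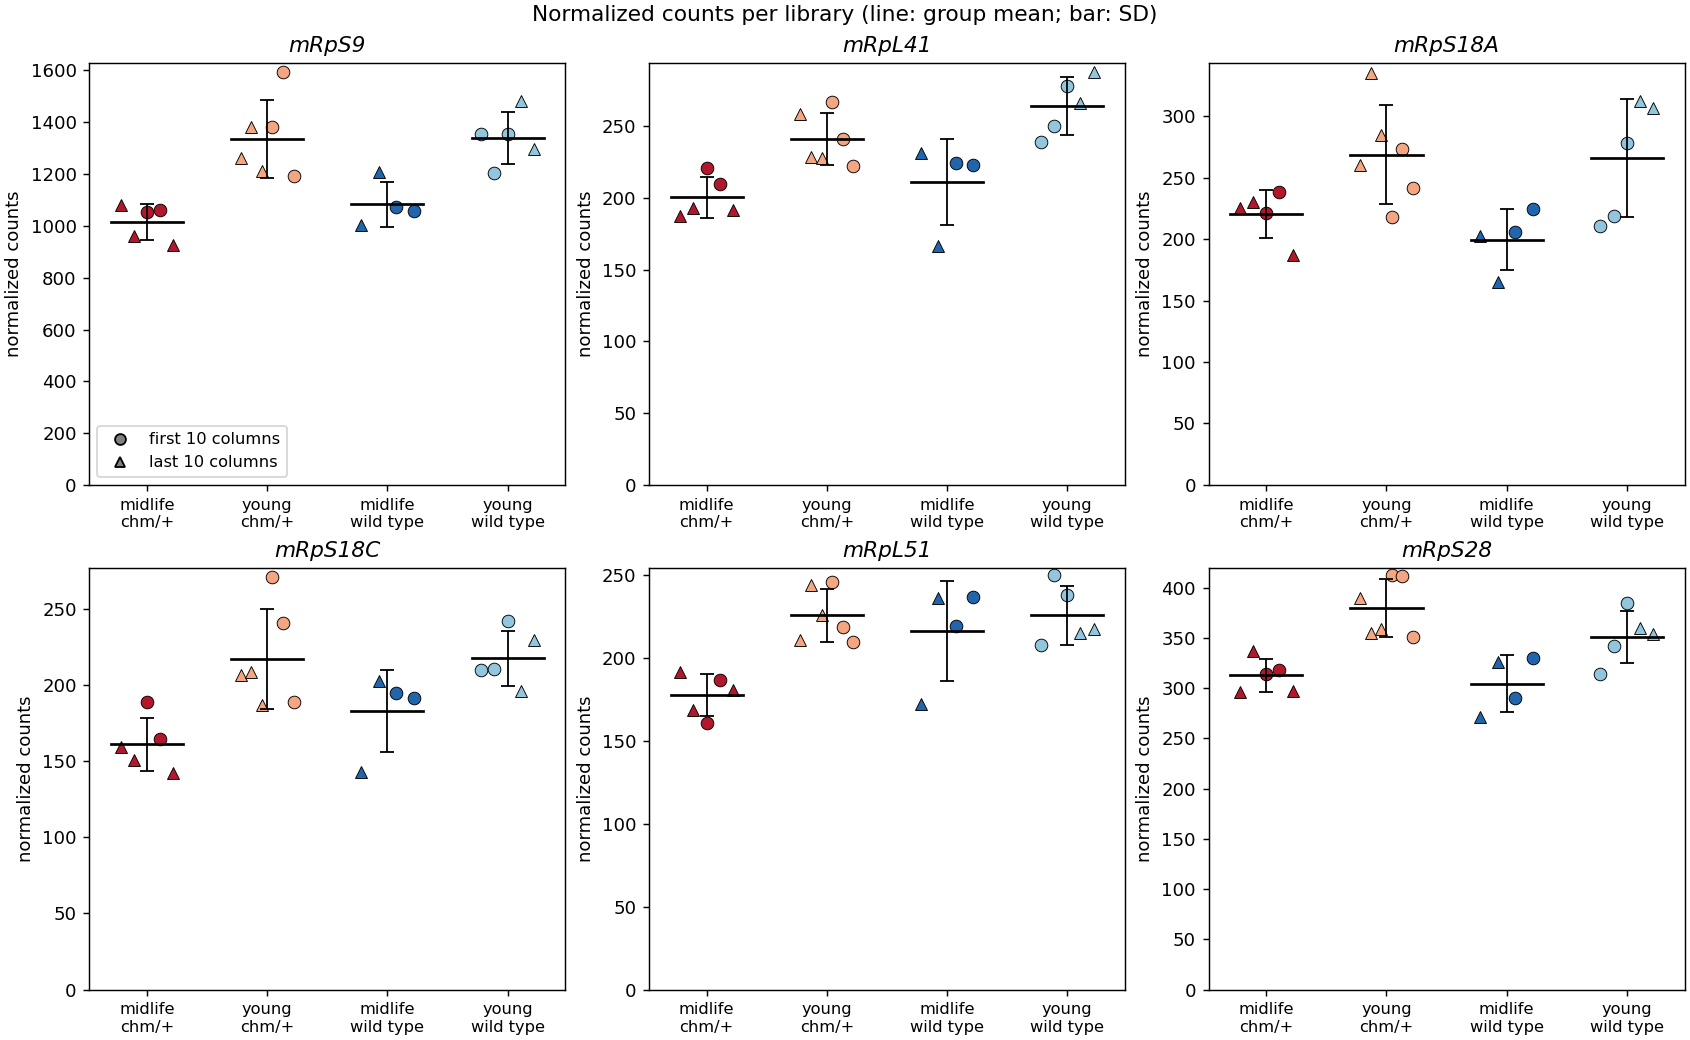
Normalized counts per library of mRpS9, mRpL41, mRpS18A, mRpS18C, mRpL51 and mRpS28 in the 4 groups, with circles for the first 10 columns, triangles for the last 10, a line for the group mean and a bar for the SD. For mRpS9 the midlife chm/+ libraries sit at 924.6 to 1080 and the young chm/+ libraries at 1192 to 1595, and for mRpL51 midlife wild type spans 172.3 to 236.8.

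How many genes passed in chm/+ rested on the fit. By the column numbers, which chm/+ libraries of the 2 ages share in 4 pairs, a fit of the chm/+ libraries alone with the number as a replicate block called 3 genes, mRpS9, mRpS18C and mRpS10 (limma adjusted p = 0.0220, 0.0423 and 0.0435). Without the block the same libraries gave 8 calls. With a column set term in the fit of all libraries 20 genes fell, including all 14. For chm/+, counts over all genes are given at the end only for the block and the last 10 columns. Counts from the other fits are therefore not read as larger or smaller shares than those of all genes. Within the first 10 columns alone the median log2 change was -0.16 with 4 calls, 3 of them lower and only 1 of them among the 14. Within the last 10 it was -0.18 with 2 calls, only 1 of them among the 14. With array weights there were 12 calls, 11 of them lower and 8 of them among the 14. The count of 14 became 7 without CHMo5, 8 without CHMo12, and 9 without CHMo11, CHMy3 or CHMy11, and it was 7 without CHMo12, CHMy2 and 2uo2 together. With any single library left out, mRpS9, mRpL30, mRpL51, mRpS28, mRpS10 and mRpS18C kept their calls. mRpL39 lost its call without CHMo5, mRpS23 without CHMo3 or CHMo11, and mRpL20 without any of 5 libraries (CHMo2, CHMo5, CHMo12, CHMy4 or CHMy11). The calls of mRpL47, mRpL55, mRpL41, mRpL43 and mRpL34 were each lost without any of 8 to 14 of the 20 libraries. With any single library left out, the median log2 change stayed between -0.22 and -0.16.

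The second comparison asks the same of midlife against young wild type heads. The 72 transcripts were again lower as a rule, by less, and few passed. Here 3 of 72 (4.17%) fell and 0 rose, where 23.7% of all genes were called, 11.3% falling and 12.4% rising, so the share of these genes that fell was below that of all genes. The fitted log2 change was negative for 65 of 72, against 53.2% of all genes, with a median of -0.11 beside -0.02 over all genes. An unadjusted p under 0.05 was found for 14 of 72 and for 3387 of all 9831 genes, a larger share. Of the large subunit 1 of 46 fell, with a median of -0.11, and of the small subunit 2 of 26 fell, with a median of -0.12. Without 2uo1 the median was -0.06 and the count again 3. Within the first 10 columns the median was -0.07 and within the last 10 it was -0.13. The last 10 include 2uo2, which lay on the side of the first 10 for mRpS5, mRpL12 and mRpS14.

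The genes that fell were mRpS9, mRpL41 and mRpS18A. mRpS9 had 1002, 1207, 1072 and 1056 normalized counts in midlife wild type libraries, against 1354, 1206, 1353, 1481 and 1295 in young wild type libraries (log2 change -0.30, SE 0.09, limma adjusted p = 0.0149). The groups met at 2uo2 and 2uy2. mRpL41 had 231.2, 166.5, 224.1 and 222.6 in midlife wild type libraries, against 238.7, 249.8, 277.5, 266.1 and 287.7 in young wild type libraries (log2 change -0.31, SE 0.09, limma adjusted p = 0.0171). These did not overlap, though 2uo2 lay well below the other midlife libraries, and without it the log2 change was -0.21 (limma adjusted p = 0.0819). mRpL41 shares 7.91% of its exon length with CG11808 on the other strand.

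mRpS18A is 1 of 3 fly genes related to bacterial S18, and its human counterpart has been placed in the large subunit. It had 202.7, 165.4, 205.8 and 224.6 normalized counts in midlife wild type libraries, against 211, 219.1, 278.4, 312.7 and 306.7 in young wild type libraries (log2 change -0.38, SE 0.13, limma adjusted p = 0.0388). The groups overlapped, with 2 young libraries near the midlife values. Its call was lost when any of 6 single libraries was left out (2uo1, 2uo2, 2uo4, 2uy3, 2uy4 or 2uy5), with a highest adjusted p of 0.140 in limma. In chm/+ it was not called, at -0.26 (limma adjusted p = 0.146). The related mRpS18C, which fell in chm/+, was not called in wild type, at -0.24 (limma adjusted p = 0.143), and mRpS18B was called in neither, at -0.12 in chm/+ and -0.11 in wild type.

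The count of 3 became 1 without 2uo2 (mRpS9 remained) and 5 without 2uy1. It was 6 with a column set term and 9 with array weights, all lower. The share of all genes called with a column set term is not given here, so the 6 are not read as a stronger fall. Of those 9, only 2 were among the 3, and the 9 were a smaller share than that of all genes called with array weights. As for overlap, 3 of 72 genes had all midlife wild type libraries below all young ones (mRpL41, mRpL17 and mRpL39) and 0 the reverse, where 9.3% and 10.9% of all genes did so. mRpL17 and mRpL39 were not called (limma adjusted p = 0.0632 and 0.0745).

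Across both genotypes, mRpS9 and mRpL41 fell in each, 2 of 72 genes, where 5.02% of all genes were called lower in both. The log2 change was negative in both genotypes for 64 of 72 genes, against 40.8% of all genes, and positive in both for 3, mRpS7, mRpS31 and mRpL28. These comparisons use separate libraries of the 2 genotypes.

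**Figure D4:**
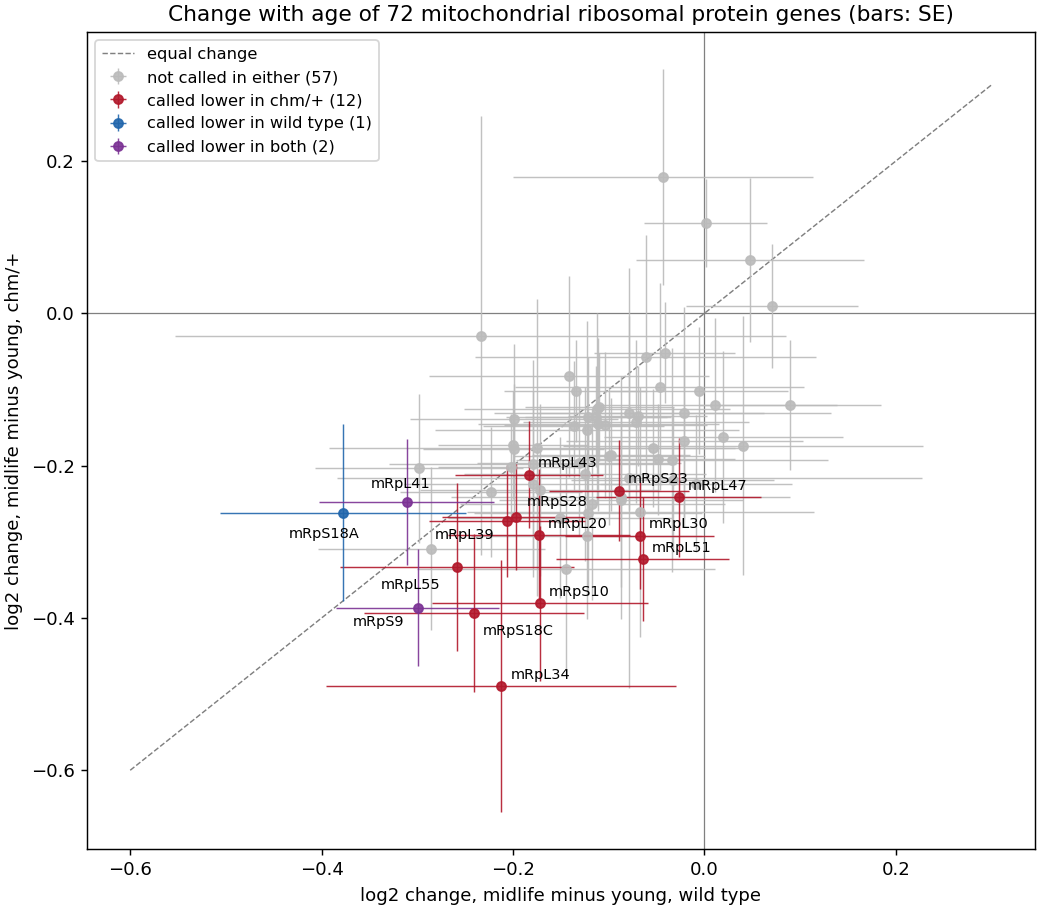
Log2 change between midlife and young libraries in chm/+ (vertical axis) against that in wild type (horizontal axis) for the 72 genes, with bars for the SE and a dashed line for equal change. Most points lie below and left of 0, where 64 of 72 genes are negative in both genotypes, and 59 lie below the dashed line.

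The third comparison asks whether the change with age differed between genotypes. The change was more negative in chm/+ than in wild type for 59 of 72 genes (81.9%), against 47.5% of all genes. The median difference was -0.07 beside 0.01 over all genes. This direction was not particular to the 72, since most nuclear oxidative phosphorylation and cytosolic ribosomal protein genes shared it, as given below. In the test of the difference, 0 of 72 genes were called by limma, where 0.356% of all genes were called. An unadjusted p under 0.05 was found for 2 of 72 and for 655 of all 9831 genes, a larger share. The difference in number of calls, 14 in chm/+ and 3 in wild type, is therefore not a difference shown for any single gene. The 2 genes were mRpL30 and mRpL51. For mRpL30 the change with age was -0.29 in chm/+ and -0.07 in wild type, a difference of -0.22 (SE 0.11, limma adjusted p = 0.736). For mRpL51 it was -0.32 in chm/+ and -0.06 in wild type, a difference of -0.26 (SE 0.12, limma adjusted p = 0.737).

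The fourth and the fifth comparison set chm/+ against wild type at each age. At midlife 0 of 72 genes were called by limma, where 1.95% of all genes were called. An unadjusted p under 0.05 was found for 4 of 72 and for 1304 of all 9831 genes, a larger share. The median log2 change was -0.08, beside 0.00 over all genes. The 4 were mRpL51, mRpL33, mRpL47 and mRpS25. mRpL51 stood at 177.6 ± 12.7 (SD, n = 5) in midlife chm/+ and 216.2 ± 30.4 (SD, n = 4) in midlife wild type (log2 change -0.26, limma adjusted p = 0.207). The midlife wild type library 2uo1, at 172.3, lay among the chm/+ values, and the other 3 lay above them. mRpL33 had 311.2, 363.3, 364.9, 420 and 379.3 in midlife chm/+ libraries, against 310.3, 194.6, 267.7 and 306.6 in midlife wild type libraries (log2 change 0.44, SE 0.16, limma adjusted p = 0.211). It was the only one of the 72 with no overlap at midlife, where 2.09% of all genes lay higher in chm/+ without overlap, and the gap between the groups was that between 311.2 and 310.3.

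In young flies 0 of 72 genes were called by limma, where 1.45% of all genes were called, and the median log2 change was 0.00. An unadjusted p under 0.05 was found for 4 of 72 and for 1506 of all 9831 genes, a larger share. mRpL30 alone had no overlap, with 460 to 547.8 and a median of 508.9 in young chm/+ libraries, against 406.7, 456.6, 400.1, 451.2 and 439.6 in young wild type libraries (log2 change 0.23, SE 0.07, limma adjusted p = 0.120), as 1.59% of all genes were higher in chm/+ without overlap. In midlife flies mRpL30 had 413.1 ± 49.2 (SD, n = 5) in chm/+ and 410.1 ± 14.2 (SD, n = 4) in wild type. The others at an unadjusted p under 0.05 were mRpL50 at -0.20, mRpS31 at -0.14 and mRpS34 at 0.19. Array weights gave 2 calls at midlife and 8 in young flies. Both were smaller shares than those of all genes called with array weights, whose counts are given at the end.

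Each library can be placed by the median, over the 72 genes, of the log2 deviation from each gene's own mean. These medians were -0.10, -0.25, -0.05, -0.01 and -0.23 in midlife chm/+ libraries, against -0.04 to 0.23 in young chm/+ libraries. They were -0.23, 0.05, 0.00 and 0.06 in midlife wild type libraries, against 0.05, 0.09, 0.15, 0.05 and 0.03 in young wild type libraries. All 5 midlife chm/+ libraries were below 0 and 4 of 6 young chm/+ libraries were above it. The midlife wild type mean rested on 2uo1, since the other 3 lay at or above 0. In both genotypes the ages overlapped. Within the first column set the mean of these medians was -0.03 in midlife chm/+ and 0.13 in young chm/+, and 0.03 in midlife wild type and 0.09 in young wild type. Within the last it was -0.19 in midlife chm/+ and 0.01 in young chm/+, and -0.09 in midlife wild type and 0.04 in young wild type. The -0.09 is the mean of 2uo1 at -0.23 and 2uo2 at 0.05. For mRpS5, mRpL12 and mRpS14, 2uo2 lay on the side of the first set.

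**Figure D5:**
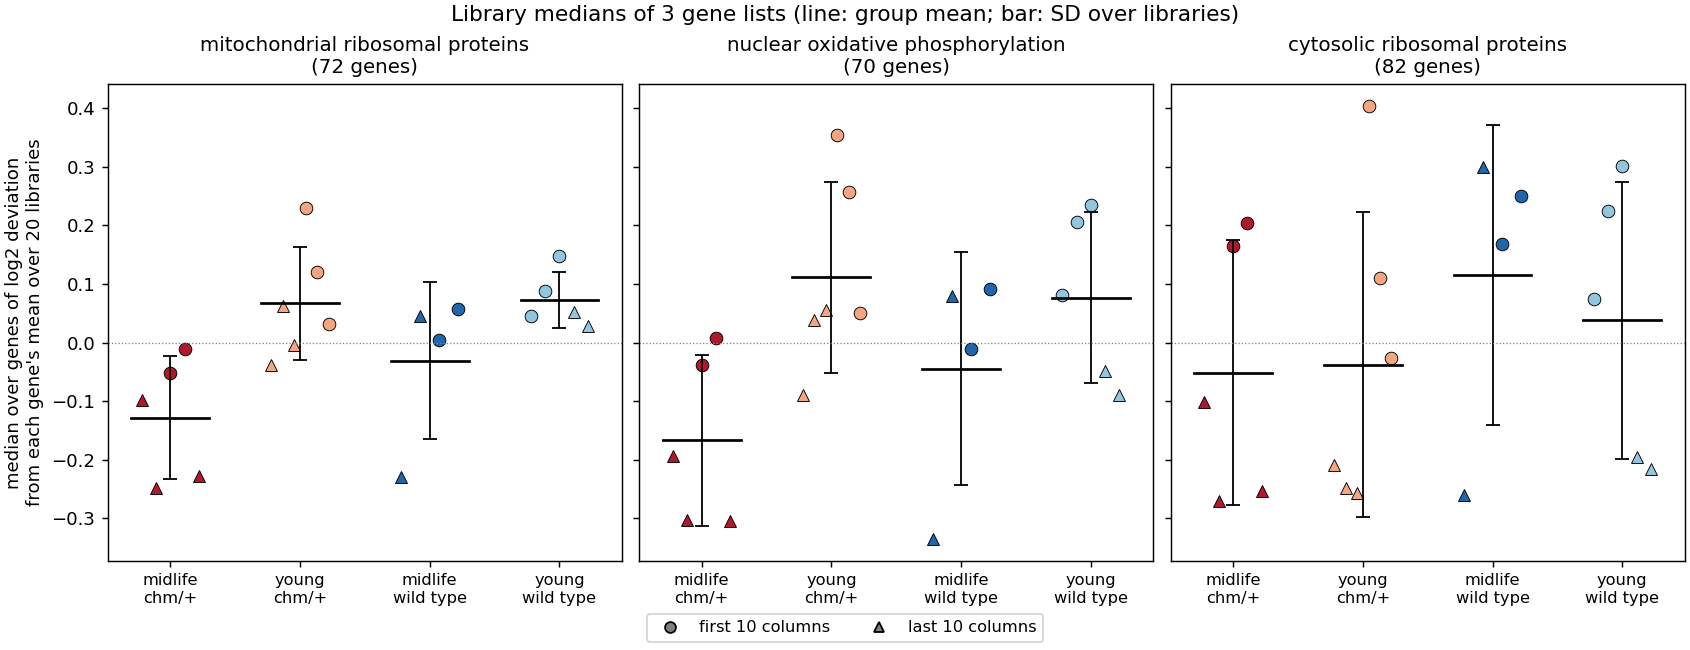
Median log2 deviation per library of mitochondrial ribosomal protein genes, nuclear oxidative phosphorylation genes and cytosolic ribosomal protein genes in the 4 groups, with circles for the first 10 columns, triangles for the last 10, a line for the group mean and a bar for the SD over libraries. For mitochondrial ribosomal proteins midlife chm/+ runs from -0.25 to -0.01, and the triangles lie low for cytosolic ribosomal proteins in every group but midlife wild type, where 2uo2 is at 0.30.

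The other parts of mitochondrial translation form short lists, set here beside the 7.36% of all genes that fell with age in chm/+ and the 11.3% that fell in wild type. tko, which encodes the S12 protein of the decoding site, had a log2 change with age of -0.05 in chm/+ and 0.10 in wild type, and bonsai, which encodes the S15 protein, had -0.15 in chm/+ and -0.05 in wild type, and none was called. Of 9 translation factors 1 (11.1%) fell in chm/+ and 0 were called in wild type. It was the ribosome recycling factor gene mRRF1 (CG4447 in the table; log2 change -0.27, limma adjusted p = 0.0318), with 172.3 ± 19.5 (SD, n = 5) in midlife chm/+ and 209.5 ± 13.9 (SD, n = 6) in young chm/+ libraries. Of 15 genes for mitochondrial aminoacyl-tRNA synthetases, which charge tRNAs with amino acids, 2 (13.3%) fell in each genotype. These were ValRS-m (CG5660 in the table; -0.29 in chm/+ and -0.30 in wild type) and TrpRS-m (CG7441 in the table; -0.34 in chm/+ and -0.40 in wild type). Slimp, a paralogue of the mitochondrial seryl-tRNA synthetase, rose in wild type (log2 change 0.70, limma adjusted p = 0.000174).

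Of 12 genes for import of proteins into mitochondria, 3 (25%) fell in chm/+ and 4 (33.3%) in wild type, both larger shares than those of all genes and of the 72 ribosomal genes, differences that were not tested. mge, a subunit of the outer membrane translocase, the receptor gene Tom70 and the chaperone gene Tim8 fell in both, and the channel gene Tom40 fell in wild type. Of 16 genes that maintain, transcribe or process mitochondrial nucleic acids, mtDNA-helicase rose by 0.29 and SLIRP2 (CG8021 in the table) fell by 0.40 on the log2 scale in chm/+, and 0 were called in wild type. The mitochondrially encoded RNAs varied widely between libraries: of 13 mRNAs 0 were called in any of the 5 comparisons, and the genes of the mitochondrial ribosomal RNAs, at log2 changes with age of -1.06 and -1.01 in chm/+ and -1.33 and -0.71 in wild type, were not called either. Between genotypes all 13 mRNAs had a positive log2 change, higher in chm/+, at each age. Their medians were 1.03 at midlife and 0.86 in young flies, where 49.9% and 50.2% of all genes were negative. With age 12 of 13 were negative in chm/+ and 11 of 13 in wild type. Library medians of the 13 ran from -2.10 in 2uo2 to 1.72 in CHMo5, and these directions were not tested as a set.

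The nuclear genes of oxidative phosphorylation, whose complexes contain the products of the mitochondrial ribosome, fell in a larger share than all genes in chm/+ and in a smaller share in wild type. In chm/+ 18 of 70 (25.7%) fell and 0 rose, with a median log2 change of -0.28. In wild type 3 of 70 (4.29%) fell and 0 rose, with a median of -0.12. Of these 70, 0 were called in the test of the difference between genotypes by limma, with 0 at an unadjusted p under 0.05. The change with age was more negative in chm/+ than in wild type for 67 of 70 (95.7%), with a median difference of -0.14. In the cytosolic ribosome 0 of 82 genes were called with age in either genotype by limma, with 0 at an unadjusted p under 0.05 in chm/+ and 1 in wild type, and medians of -0.01 in chm/+ and 0.08 in wild type. There too the change was more negative in chm/+ than in wild type for 70 of 82 genes (85.4%), with a median difference of -0.09.

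Summed levels of markers of tissues in the head were compared as ranges, without a test. The summed level of 5 head fat body genes (5 of 7 sought were in the table) was 96760 to 317100 normalized counts in midlife chm/+ and 214400 to 530300 in young chm/+ libraries, and 78120 to 192600 in midlife wild type and 176300 to 310000 in young wild type libraries. Photoreceptor genes (8 of 8 in the table) summed to 1822000 to 2288000 in midlife chm/+ and 2140000 to 2526000 in young chm/+ libraries, and to 2114000 to 2433000 in midlife wild type and 2209000 to 2690000 in young wild type libraries. The sum of 8 neuronal genes was 80680 to 130500 in midlife chm/+ and 88010 to 137000 in young chm/+ libraries, and 58620 to 92100 in midlife wild type and 89180 to 118100 in young wild type libraries. Glial genes (6 of 6 in the table) summed to 46790 to 65210 in midlife chm/+ and 54480 to 66290 in young chm/+ libraries, and to 49250 to 53670 in midlife wild type and 50790 to 62710 in young wild type libraries. The sum of 11 muscle genes, from a tissue dense in mitochondria, was 59450 to 88570 in midlife chm/+ and 56600 to 82210 in young chm/+ libraries, and 61180 to 84820 in midlife wild type and 61230 to 89060 in young wild type libraries. Haemocyte genes (5 of 6 in the table) summed to 9555 to 14290 in midlife chm/+ and 9497 to 11550 in young chm/+ libraries, and to 13400 to 15040 in midlife wild type and 8264 to 11030 in young wild type libraries. Among these 6 sums the ages overlapped in both genotypes, except for haemocyte genes in wild type, which were higher in every midlife library. By median the head fat body sum was 155800 at midlife against 349500 in young chm/+ libraries, and 133100 against 226000 in wild type. The other sums were also lower at midlife by median, except muscle genes in chm/+ and haemocyte genes in wild type. Single genes weigh heavily in a sum: Lsp2 alone had medians of 128900 in midlife and 318500 in young chm/+ libraries. No defining marker was at 0 in these libraries. Their part in the results on the mitochondrial ribosome was not tested.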

How the data were processed

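Polyadenylated RNA from pooled male heads was sequenced as 50 bp single reads, per the labels' protocols. The submitters' processing notes name TopHat2 2.0.5, edgeR without its version, and BDGP5 as genome build. How reads were counted, with which annotation and low-count filter, is not given in the sources used here. In the table, the deposited values (handled as a signal) are counts normalized by the authors for library size. They are not whole numbers: the best step made between 6.87% and 84.3% of low values per library whole within 0.02, so no count model was run and depth is unknown. The scale was log2(value + 14.48), where 14.48 equals 0.5 CPM at the mean total, which understates changes of low genes. A filter of at least 1 CPM in at least 4 libraries removed 0 genes. In limma 3.58.1 (R 4.3.3) a model with 1 mean per group and a mean trend took in all 20 libraries. Tests are two-sided, with Benjamini-Hochberg adjustment over 9831 genes within each comparison and calls under 0.05.

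The genes and lists were chosen with earlier results of these data known. Genes named are the called ones with the 8 smallest p and the 5 highest and 5 lowest changes of each comparison, the 3 highest and 3 lowest levels, those called in both genotypes, and a few named after their values were seen (mRpL11, mRpL16, mRpL17, mRpL18, mRpL21, mRpS25 and mRpS35). Whether the libraries are separate biological samples is not stated beyond their labels, so p-values measure the spread between these libraries. Lists are described by counts and medians without a set test. Current names of CG numbers, exon lengths and overlaps come from the BDGP6 annotation, and no coordinates are given because the builds differ. mRpS5 and mRpS34 were matched to it by symbol and the others by gene ID. Column numbers shared by midlife and young libraries were checked by the correlation of deviations from group means. In chm/+ it was 0.64, 0.20, 0.17 and 0.36 for the 4 pairs, each within 1 column set. CHMo3 correlated most with CHMy2 and not with CHMy3, and pairing was not separated from a shared column set. The numbers were taken as pairs in chm/+, though the labels do not say what they mean, and the blocked fit is given in the text. Alternatives were other addends, filters and scalings, a column set term, each set alone, array weights, no mean trend, only the groups compared, and each library left out. The procedure was tested on simulated data with independent noise for each gene and library. Shifts shared by genes within a library and column sets were not simulated, so that test does not bear on them.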

Additional observations from a re-analysis of the deposited data

Results flagged for a closer look

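Of 148 groups of libraries checked, for 36 of the 72 genes and for the median over the 72, 7 had 1 library far from the others, and chance gives about 1 in 20 groups. In young chm/+, CHMy2 had 537.1 normalized counts of mRpL42, with the others at 286.5 to 351.5. In midlife wild type, 2uo1 was lowest for mRpL12 (361.4, others 544.8 to 581.7) and for mRpL47 (489.1, others 584 to 600.1). Also in midlife wild type, 2uo2 had 166.5 of mRpL41 (others 222.6 to 231.2), and 2uo5 had 671.5 of mRpS31 (others 707.5 to 710.3). In young wild type, 2uy3 had 437 of mRpL27 (others 316.2 to 337.4), and 2uy1 had 273 of mRpL35 (others 329 to 334.2). The mRpL41 value bears on its call in wild type, which was lost without 2uo2.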

How the results depend on the processing

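The count of 14 genes called with age in chm/+ was 4 in the first 10 columns alone, 2 in the last 10 alone, 3 with the replicate block, 8 with only the groups compared, 7 without CHMo12, CHMy2 and 2uo2, and 7 to 16 with each library left out. Of the calls in the first 10 columns and of those in the last 10, only 1 each was among the 14. The count of 3 in wild type was 6 with a column set term, 9 with array weights, 1 in the first 10 columns alone, 1 with only the groups compared, 0 with the replicate block, and 1 to 5 with each library left out. Of the 9 with array weights only 2 were among the 3, and the 1 in the first 10 columns was not among them. The count over all genes with a column set term is not given for wild type, so the 6 are not read as a larger share. In wild type the column numbers did not pair libraries (correlations of deviations -0.47, -0.16, -0.53 and 0.35), and no library of the 4 pairs shared its column set with its partner, so the block there is not read as a weaker change. Calls between genotypes, 0 at each age, became 2 at midlife and 8 in young flies with array weights, and 0 to 1 at midlife with each library left out. Those with array weights were smaller shares than those of all genes in that setting, whose counts are given below. The cause was not tested, beyond the smaller number of libraries in the fits of fewer columns.

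The median log2 changes with each library left out ran from -0.22 to -0.16 in chm/+, -0.14 to -0.06 in wild type, -0.12 to -0.03 for their difference, -0.14 to -0.04 for genotype at midlife and -0.04 to 0.03 for genotype in young flies. chm itself ran from -0.87 to -0.79 at midlife and from -0.94 to -0.88 in young flies. No called gene changed sign in the settings run. Over 34 settings, mRpS9 kept its call in 33 in chm/+ and 31 in wild type, and mRpL30, mRpL51, mRpS28, mRpS10 and mRpS18C kept theirs in chm/+ in 31 each. The weakest were mRpL34 in 11 of 33, mRpL41 in chm/+ in 14 and mRpL43 in 15. Over all genes, the 1572 calls in chm/+ were 364 in the last 10 columns and 815 with the block, and the 2329 in wild type were 391 in the last 10 columns, 3758 with array weights and 737 with the block. For the difference, 35 calls were 61 in the first 10 columns, 1 in the last 10 and 100 with array weights. For genotype at midlife, 192 were 16 in the last 10 columns, 357 with a set term, 626 with array weights, 125 without the 3 libraries and 118 with only the groups compared. For genotype in young flies, 143 were 17 in the last 10 columns, 292 in the first 10, 394 with a set term and 3194 with array weights. Promoter motifs were not run. Depth is unknown, so no detection limit is given.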
